A study of Rattus norvegicus with 9 samples.

Results

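The genes described here are those of antigen presentation by major histocompatibility complex (MHC) class I in 4T1 cells, a mouse mammary carcinoma line. They were taken from the deposited expression matrix by name: B2m, Psmb8, Psmb9, Tap1 and every symbol that starts with H2- and its hyphen. The table lists 2392 genes, of which 8 met this rule, the 4 named genes and 4 class I heavy chain genes, H2-Q4, H2-Q5, H2-T22 and H2-T24. Messenger RNA was sequenced in 9 libraries. Cells were kept in medium (Control, n = 3), in medium with molybdenum disulfide nanoparticles (MoS2, n = 3), or with the same particles and near-infrared light (MoS2_NIR, n = 3), the group whose cell state is labelled photothermal therapy. All 9 libraries come from 1 cell line, the labels used here give no particle dose, light dose or harvest time, and no group had light without particles. The labels do not say whether libraries of the same group had their own cultures, so p-values here reflect the spread between libraries, which may be technical.

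MHC class I molecules show pieces of the cell's own proteins to CD8+ T cells. The proteasome cuts proteins into peptides, the transporter TAP moves the peptides into the endoplasmic reticulum, and there they are loaded onto a heavy chain that is paired with beta-2 microglobulin. Interferon makes cells replace catalytic subunits of the standard proteasome with those of the immunoproteasome, which changes the set of peptides made, and it raises heavy chains and TAP as well. Tumour cells that lose this pathway are poorly seen by T cells.

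The table gives only scores standardized for each gene, from which expression values were recovered for 2391 genes. Neither their unit nor the sequencing depth is known, so no counting error or limit of detection is given. The table is a selection of genes made by a rule that is not stated: in 2098 genes some group mean was at least 2 times another, and in MoS2_NIR against Control only 29 of 1748 tested genes lay within 0.4 of 0 on the log2 scale. Limma called 97.4% of the tested genes in that comparison, 87.1% in MoS2_NIR against MoS2 and 46.9% in MoS2 against Control, so in both comparisons with light a call as such was the usual state of a gene in this table. The median recovered value per library was between 1.63 and 2.07 in Control and MoS2 and between 3.19 and 3.26 in MoS2_NIR. Of 10 listed markers of 4T1 cells 4 were in the table, with a summed value of 1643 to 1770 in Control, 1301 to 1335 in MoS2 and 806 to 858 in MoS2_NIR. Most of this sum is Spp1 and Lcn2, while Csf3 went the other way, with means of 63.0 ± 0.878, 118 ± 4.75 and 172 ± 34.7 (SD, n = 3 each). Epcam and the keratins Krt8 and Krt18 were not analysed here. Levels in such bulk samples cannot tell fewer cells of a type from less RNA per cell.

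All 8 members had lower group means in MoS2 than in Control, and lower ones in MoS2_NIR than in either. Of the 7 members tested, the immunoproteasome genes Psmb8 and Psmb9 had the lowest log2 fold changes in each comparison, and H2-Q5 was called in none. The place of Psmb9 depended on the settings. With 5 instead of 1 added before the logarithm it was at -0.73 in MoS2_NIR against Control, above B2m at -0.91. With median-ratio scaling it was at -1.25 between the particle groups, above B2m at -1.45.

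**Figure D1:**
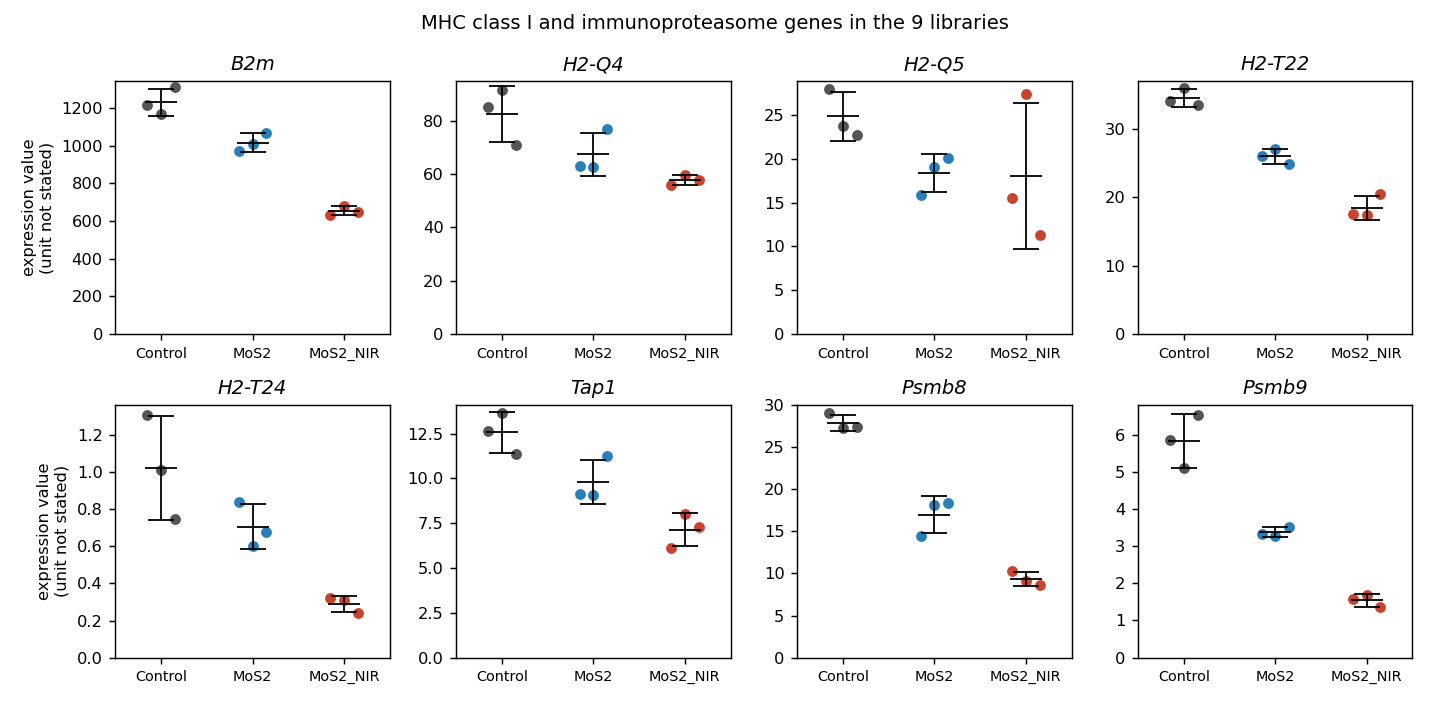
Recovered expression value (y axis, unit not stated, starting at 0) of each of the 8 members in the 3 groups. Points are libraries, and bars are the mean and SD (n = 3). The groups are separate and descending for B2m, H2-T22, Psmb8, Psmb9 and Tap1, while the MoS2_NIR values of H2-Q5 run from 11.3 to 27.4.

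B2m (ENSMUSG00000060802) encodes beta-2 microglobulin, the light chain that class I heavy chains generally need to fold and reach the cell surface. Its values were 1213, 1166 and 1308 in the Control libraries, 971, 1006 and 1069 with MoS2, and 634, 679 and 648 with MoS2_NIR. No value of 1 group reached into another, and the 9 libraries fell into 3 separate steps. Compared with Control, the mean was 17.4% lower with particles alone (a log2 fold change of -0.28, SE 0.07, at a limma adjusted p of 0.00958) and 46.8% lower with particles and light (-0.91, SE 0.07, at 5.45e-07). From MoS2 to MoS2_NIR it fell by 0.63 on the log2 scale (limma adjusted p = 1.58e-05). Quantile normalization ended the first of these calls (limma adjusted p = 0.29).

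The heavy chain genes belong to the nonclassical families Q and T of the mouse MHC. H2-T22 (ENSMUSG00000056116), whose product is a known ligand of a subset of gamma-delta T cells, was 34.1, 36.0 and 33.5 in Control, 26.0, 27.0 and 24.8 with MoS2, and 17.5, 17.3 and 20.4 with MoS2_NIR. Its groups did not overlap in any comparison. It fell in all 3 of them, with log2 fold changes of -0.40 in MoS2 and -0.87 in MoS2_NIR against Control and -0.48 between the particle groups (SE 0.10 each, limma adjusted p = 0.00766, 5.64e-06 and 0.000809).

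H2-Q4 (ENSMUSG00000035929) was the heavy chain gene with the highest recovered value among the members. Its values were 85.2, 91.5 and 70.8 in Control, 62.9, 62.7 and 76.9 with MoS2, and 56.0, 59.8 and 57.7 with MoS2_NIR. Control and MoS2 overlapped, because the lowest Control library (replicate 3) was below the highest MoS2 library (replicate 3), and MoS2_NIR lay below both. It fell in MoS2_NIR against Control by 0.50 (SE 0.12, limma adjusted p = 0.00169). The difference was -0.28 for MoS2 against Control (limma adjusted p = 0.0669) and -0.21 for MoS2_NIR against MoS2 (limma adjusted p = 0.107), and neither was called. The first of these was called without Control replicate 3 (limma adjusted p = 0.0172) or MoS2 replicate 3 (limma adjusted p = 0.035), and in a fit of the deposited scores (limma adjusted p = 0.0465).

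H2-Q5 (ENSMUSG00000055413) did not follow the other members in MoS2_NIR. Its values were 28.0, 23.8 and 22.8 in Control, 15.9, 19.1 and 20.1 with MoS2, and 15.5, 27.4 and 11.3 with MoS2_NIR. The second irradiated library was near the highest Control library and the other two were below every MoS2 library, so MoS2_NIR overlapped both other groups. MoS2 lay wholly below Control. No comparison was called (log2 fold change -0.42, -0.52 and -0.11, SE 0.26 each, limma adjusted p = 0.204, 0.0764 and 0.704 for MoS2 against Control, MoS2_NIR against Control and MoS2_NIR against MoS2). All 3 rested on MoS2_NIR replicate 2: without it the limma adjusted p-values were 0.0402, 0.000503 and 0.0281, with log2 fold changes of -0.42, -0.86 and -0.44. The first was also called with only Control and MoS2 fitted (limma adjusted p = 0.0282), and the second after quantile normalization (limma adjusted p = 0.00779). Without MoS2_NIR replicate 3 the last difference turned to 0.17 (limma adjusted p = 0.459).

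H2-T24 (ENSMUSG00000053835) had the lowest values of the members and, with 2 libraries at 1 or above, missed the limit for testing. It was 1.31, 1.01 and 0.75 in Control, 0.84, 0.60 and 0.68 with MoS2, and 0.32, 0.31 and 0.24 with MoS2_NIR. Control and MoS2 overlapped, and the irradiated libraries were below all others. Fitted without the limit, its log2 fold changes were -0.24 in MoS2 and -0.64 in MoS2_NIR against Control and -0.40 between the particle groups (SE 0.12 each, limma adjusted p = 0.138, 0.000427 and 0.0104). Because 1 is added before the logarithm, these understate the ratio of means, which was 0.283 for MoS2_NIR against Control.

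The Q and T genes have close copies in the MHC, and reads may be split among them. The 4T1 line comes from a BALB/c mouse, while mm10 is the genome of another strain, and class I genes differ between strains. The levels of the 4 heavy chain genes are therefore uncertain, and how their reads were assigned was not tested. The classical heavy chain genes H2-K1, H2-D1 and H2-L were not analysed here.

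Tap1 (ENSMUSG00000037321) encodes a subunit of the peptide transporter. It was 12.7, 13.7 and 11.3 in Control, 9.15, 9.05 and 11.2 with MoS2, and 6.14, 8.0 and 7.30 with MoS2_NIR. The groups were separate, although MoS2 replicate 3 came within reach of the lowest Control library. Tap1 fell in MoS2_NIR against Control (mean 43.1% lower, a log2 fold change of -0.74 with an SE of 0.13 and a limma adjusted p of 0.00019) and against MoS2 (-0.41, SE 0.13, limma adjusted p = 0.0113). The second call ended without MoS2 replicate 3 (limma adjusted p = 0.0527). For MoS2 against Control the difference of -0.33 was not called (limma adjusted p = 0.0553), and its limma adjusted p became 0.0378 without MoS2 replicate 3, 0.0396 without Control replicate 3 and 0.0487 without MoS2_NIR replicate 1, 0.012 after quantile normalization, 0.047 with a pseudocount of 5 and 0.0371 in a fit of the deposited scores.

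Psmb8 (ENSMUSG00000024338) and Psmb9 (ENSMUSG00000096727) encode LMP7 and LMP2, catalytic subunits that take the place of Psmb5 and Psmb6 products in the immunoproteasome. Psmb8 was 29.0, 27.3 and 27.4 in Control, 14.4, 18.1 and 18.4 with MoS2, and 10.3, 9.09 and 8.68 with MoS2_NIR. Its lowest Control library stood well above its highest MoS2 library. Its log2 fold change was -0.69 for MoS2 and -1.48 for MoS2_NIR against Control, and -0.79 between the particle groups (SE 0.11 each, limma adjusted p = 0.0014, 5.52e-07 and 9.04e-05).

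Psmb9 was 5.85, 5.10 and 6.53 in Control, 3.33, 3.26 and 3.52 with MoS2, and 1.57, 1.68 and 1.36 with MoS2_NIR, again in 3 separate steps. The MoS2_NIR mean was 73.6% below Control, the largest relative decrease of the 8 members, next to 66.4% for Psmb8 and 71.7% for H2-T24. Psmb9 fell in every comparison, at log2 fold changes of -0.64 for MoS2 against Control, -1.42 for MoS2_NIR against Control and -0.79 for MoS2_NIR against MoS2 (SE 0.12 each, limma adjusted p = 0.00237, 8.3e-07 and 0.000115). For B2m, Psmb8, Psmb9 and H2-T22 no call against Control or between the particle groups ended when any 1 library was left out.

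**Figure D2:**
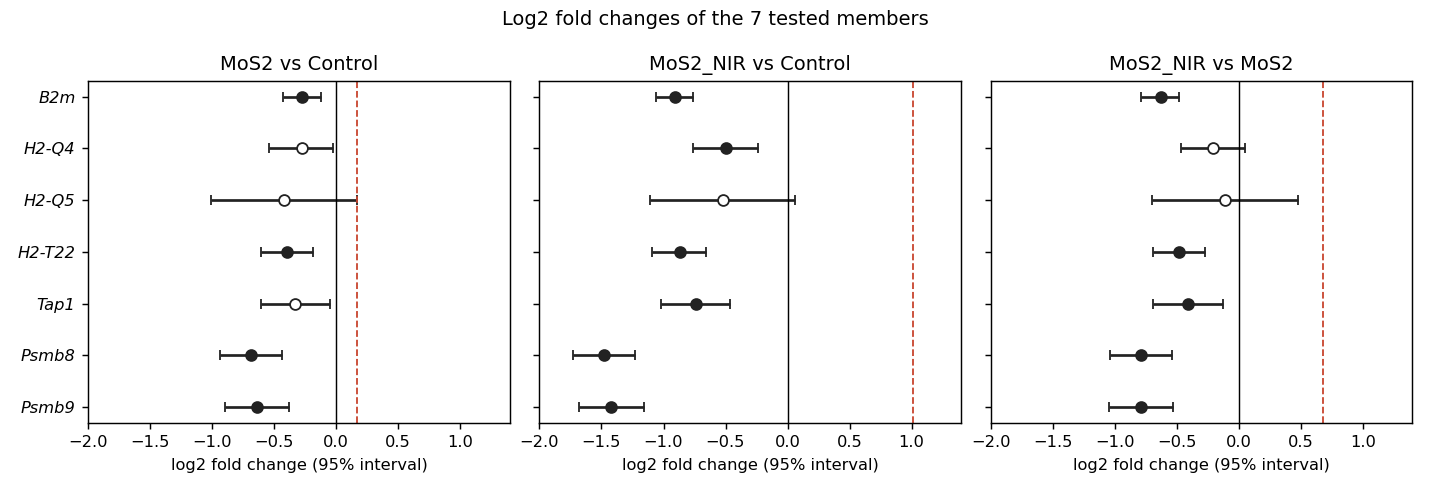
Log2 fold change (x axis, difference of group means of log2 of the value plus 1) of the 7 tested members in the 3 comparisons, with 95% limma intervals. Filled points have a limma adjusted p under 0.05, and the dashed line is the median of all 1748 tested genes, at 0.17, 1.01 and 0.68. All 7 points lie left of 0 in each panel, and Psmb8 and Psmb9 lie furthest left.

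In MoS2 against Control 4 of the 7 tested members were lower and 0 higher (B2m, H2-T22, Psmb8 and Psmb9), where 16.8% of all tested genes were called lower and 30.1% higher. In MoS2_NIR against Control 6 were lower and 0 higher, all but H2-Q5, against 33.9% of tested genes lower and 63.5% higher. In MoS2_NIR against MoS2 5 were lower and 0 higher, all but H2-Q4 and H2-Q5, against 25.4% lower and 61.7% higher. The comparisons share libraries, so these counts do not stand apart from each other. The median log2 fold change over the 7 tested members was -0.40, -0.87 and -0.48 in this order, and over all tested genes it was 0.17, 1.01 and 0.68. In each comparison 6 of the 7 had all 3 values below all 3 of the other group, which 20.6%, 33% and 25.7% of the tested genes had. With 3 libraries against 3 the smallest exact two-sided permutation p is 0.1, and the members that did not overlap had this value.

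Values were also scaled between libraries in 2 ways. Median-ratio scaling divides all values of a library by 1 factor. Log2 fold changes still moved by unequal amounts under it, because 1 is added before the logarithm and weighs more in genes of low value. Median-ratio scaling took the median of all tested log2 fold changes from 0.17 to -0.04 for MoS2 against Control, from 1.01 to 0.16 for MoS2_NIR against Control and from 0.68 to 0.02 between the particle groups. Quantile normalization took it to 0.13, 0.47 and 0.21. The split of all calls moved with it, from 526 higher and 294 lower to 229 and 542 after median-ratio scaling for MoS2 against Control, from 1110 and 592 to 608 and 634 for MoS2_NIR against Control, and from 1078 and 444 to 415 and 611 (674 and 561 after quantile normalization) between the particle groups. The 7 tested members were below 0 in each comparison under both scalings. Median-ratio scaling deepened the members' change in MoS2_NIR against Control to between -1.60 (H2-Q5) and -2.53 (Psmb8), and after it all 7 were called lower in each comparison. Relative to the median of all tested genes, B2m was at -1.92 unscaled, at -2.21 with median-ratio scaling and at -1.43 with quantile normalization in that comparison, and Psmb8 at -2.49, -2.69 and -2.51.

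**Figure D3:**
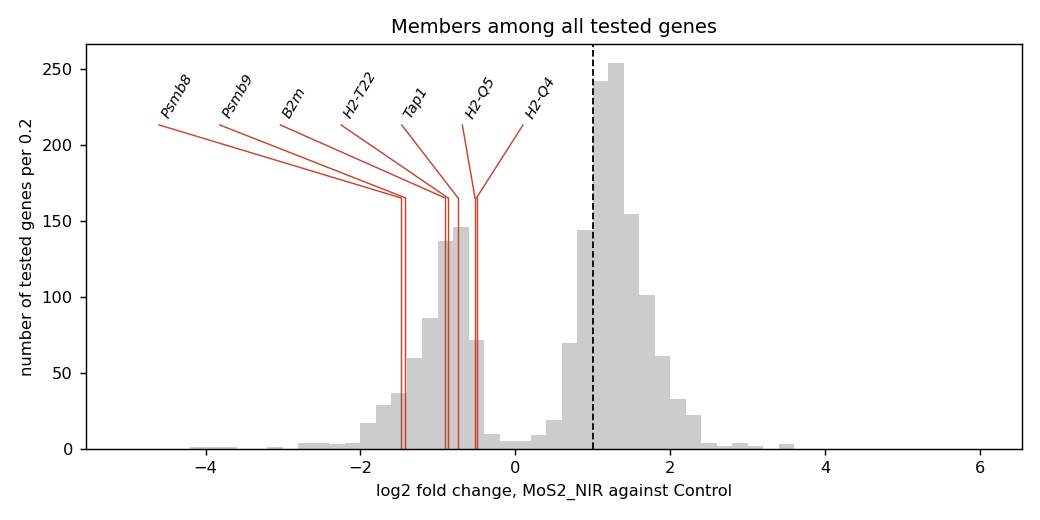
Number of tested genes (y axis) by log2 fold change of MoS2_NIR against Control (x axis, bins of 0.2), with the tested members as red lines and the median of 1.01 as a dashed line. The table splits into a group of genes below 0 and a larger group above, with 29 of 1748 genes within 0.4 of 0, and the 7 members all sit in the lower group, from -1.48 (Psmb8) to -0.50 (H2-Q4).

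Within the lower group of genes the members were not at the extreme. Psmb8 was the gene with rank 84 from the lowest log2 fold change among 1748 in MoS2_NIR against Control, Psmb9 had rank 97, B2m 301, H2-T22 331, Tap1 441, H2-Q5 561 and H2-Q4 575. In all, 618 tested genes were below 0 in this comparison.

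The ratio of each member to B2m within a library needs no scaling between libraries. This measure was chosen after the values had been seen, and its 21 comparisons have exact permutation p-values of at least 0.1, or 0.233 after Benjamini-Hochberg adjustment over them, so none passed. The log2 ratio of Psmb9 to B2m was -7.73 ± 0.10 in Control, -8.23 ± 0.04 in MoS2 and -8.74 ± 0.14 in MoS2_NIR (SD, n = 3), with no overlap between any of the groups. The log2 ratio of Psmb8 to B2m was -5.46 ± 0.10, -5.91 ± 0.15 and -6.13 ± 0.16 in the same order. For Psmb8 both particle groups lay below Control and overlapped each other. These ratios set the change of 1 gene against the change of another, and their level has no meaning between genes of different length.

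Tap1 and H2-T22 kept closer to B2m. The log2 ratio of Tap1 to B2m was -6.62 ± 0.22 in Control and -6.52 ± 0.15 in MoS2_NIR (difference 0.09, exact permutation p = 0.6, n = 3 each), and that of H2-T22 was -5.15 ± 0.14 and -5.15 ± 0.15 (exact permutation p = 1, n = 3 each). H2-Q4 went the other way, with a log2 ratio of -3.90 ± 0.27 in Control, -3.92 ± 0.11 in MoS2 and -3.50 ± 0.01 in MoS2_NIR, where the irradiated libraries lay above all others. A p of this size in groups of 3 does not show that values were equal.

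**Figure D4:**
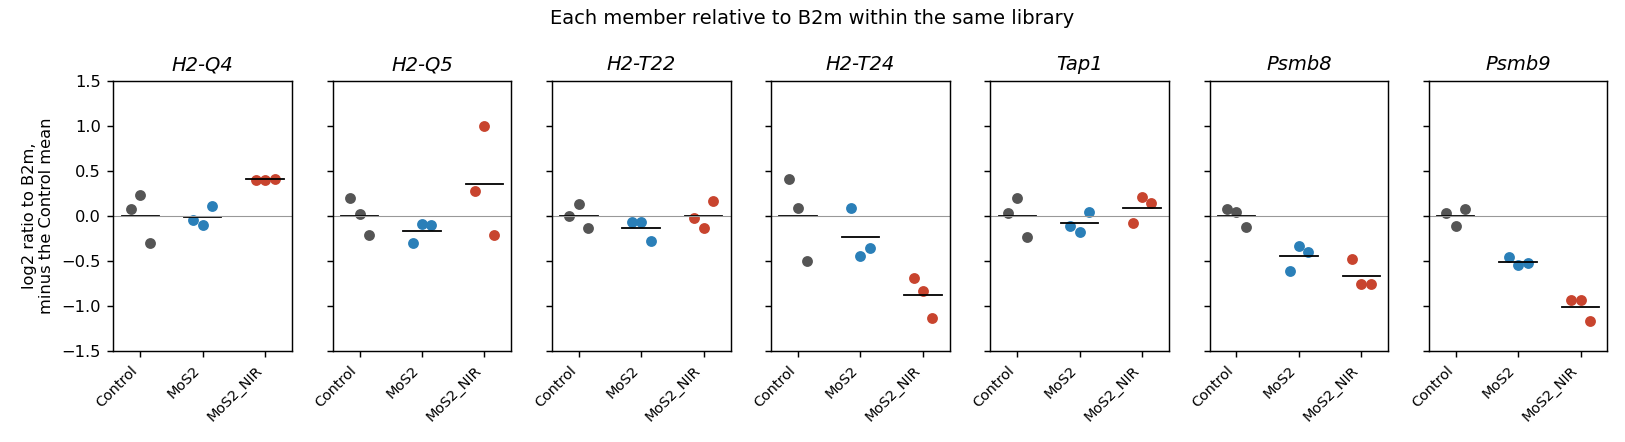
Log2 ratio of each member to B2m in the same library, minus the mean of the Control libraries (y axis), for the 3 groups. Points are libraries and lines are group means. Psmb8, Psmb9 and H2-T24 in MoS2_NIR lie below the Control libraries, H2-Q4 lies above them, and Tap1, H2-T22 and H2-Q5 overlap them.

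Correlations describe the same pattern over the 9 libraries, whose 3 groups make up most of the spread. With the mean standardized pattern of B2m, Psmb8, Psmb9 and Tap1, the log2 values of H2-T22, H2-T24, H2-Q4 and H2-Q5 had Pearson's r of 0.959, 0.910, 0.878 and 0.603. Among pairs of members the highest r was that of B2m with Psmb9 (0.982) and the lowest that of H2-Q5 with H2-T22 (0.434). The 5 other tested genes most like that mean pattern were Gm42836, Lcn2, Sp100, Map1lc3b and Hcfc1r1, with r from 0.9938 to 0.9975. Sp100, a nuclear body protein that interferon induces, had group means of 12.4 ± 0.584, 8.19 ± 1.01 and 3.91 ± 0.399 in Control, MoS2 and MoS2_NIR (SD, n = 3 each). Hcfc1r1 had 491 ± 16.4, 336 ± 30.4 and 222 ± 14.1. All 5 were called lower in each of the 3 comparisons, which their choice by likeness to a descending pattern largely fixes.

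The other genes of peptide loading that were in the table moved the way of Tap1. Of 7 listed genes of class I loading and transport, Tap2 and Tapbpl were tested. Tap2, the partner of Tap1 in the transporter, was 25.4, 28.1 and 21.6 in Control, 18.1, 21.2 and 21.5 with MoS2, and 13.8, 14.8 and 16.7 with MoS2_NIR. Tapbpl, which encodes the peptide editor TAPBPR, was 17.7, 16.0 and 15.9 in Control, 13.0, 13.6 and 15.6 with MoS2, and 9.85, 9.46 and 8.75 with MoS2_NIR. For both genes the irradiated libraries were below all others. Both fell in MoS2_NIR against Control (log2 fold change -0.69 and -0.76, limma adjusted p = 0.000235 and 2.86e-05) and against MoS2 (-0.40 and -0.54, limma adjusted p = 0.00994 and 0.000612). Against Control neither was called in MoS2 (-0.29 and -0.22, limma adjusted p = 0.0757 and 0.094), but both were after median-ratio scaling (limma adjusted p = 0.00118 and 0.00119), Tap2 also without Control replicate 3 (limma adjusted p = 0.0253), and Tapbpl after quantile normalization (limma adjusted p = 0.0358). The list's median of -0.73 in MoS2_NIR against Control stands beside 1.01 for all tested genes. Of all tested genes 33.9% were called lower in that comparison and 25.4% in MoS2_NIR against MoS2.

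On the side of the proteasome, 1 of 4 listed genes of the immunoproteasome and its activator and 1 of 33 listed genes of the standard proteasome were in the table. Psme1 encodes a subunit of PA28, the proteasome activator that interferon induces. It was 116, 126 and 137 in Control, 99.4, 95.6 and 104 with MoS2, and 74.8, 78.5 and 69.8 with MoS2_NIR. The groups were separate, and Psme1 fell in all 3 comparisons (log2 fold change -0.33, -0.75 and -0.42, limma adjusted p = 0.0135, 1.26e-05 and 0.00136). The call in MoS2 ended without MoS2 replicate 2 (limma adjusted p = 0.0548) and after quantile normalization (limma adjusted p = 0.135).

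Adrm1 encodes RPN13, a ubiquitin receptor of the standard proteasome. It was 32.2, 38.0 and 27.4 in Control, 37.3, 37.5 and 42.4 with MoS2, and 110, 120 and 99.1 with MoS2_NIR. Its irradiated libraries were far above the rest, and it rose against Control by 1.73 (SE 0.13, limma adjusted p = 4.27e-07) and against MoS2 by 1.46 (SE 0.13, limma adjusted p = 4e-06). After median-ratio scaling these were 0.60 and 0.66 and still called (limma adjusted p = 0.000257 and 0.000201). In MoS2 against Control Adrm1 was at 0.27 (limma adjusted p = 0.102), or -0.06 after median-ratio scaling, and it was called without Control replicate 2 (0.38, limma adjusted p = 0.0322). Psmb10 and the subunits Psmb5 and Psmb6 that LMP7 and LMP2 replace were not analysed here.

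**Figure D5:**
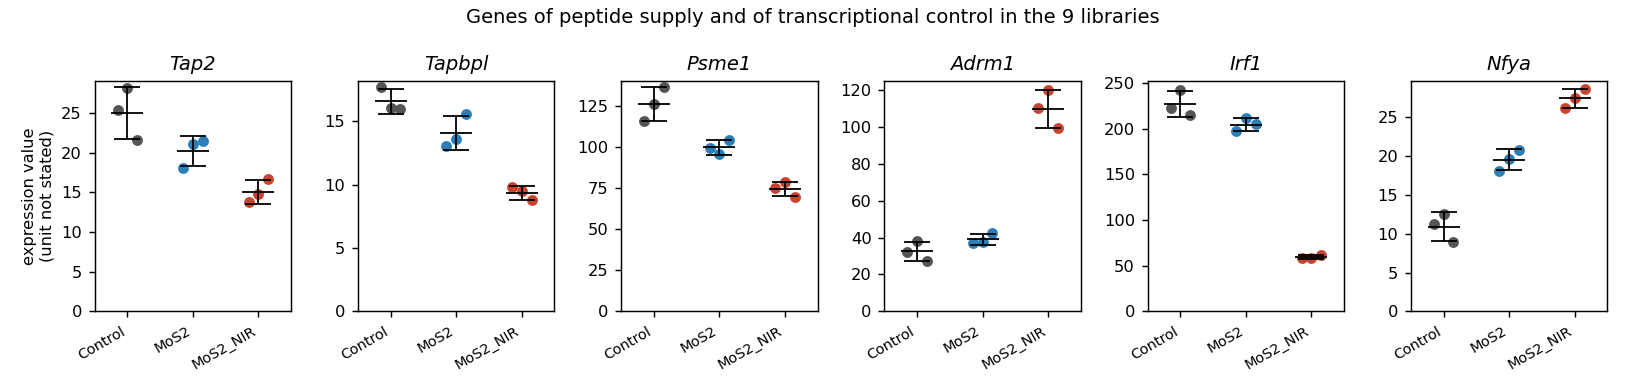
Recovered expression value (y axis, unit not stated, starting at 0) of 6 other genes of the pathway in the 3 groups. Points are libraries, and bars are the mean and SD (n = 3). Tap2, Tapbpl, Psme1 and Irf1 are lowest in MoS2_NIR, and Adrm1 and Nfya are highest there.

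Among 30 listed regulators of class I genes, of the interferon and NF-kB pathways and other factors, 6 were in the table and 5 were tested. The untested gene, Socs1, had a higher unscaled mean in MoS2_NIR (0.887 ± 0.369) than in Control (0.220 ± 0.131; SD, n = 3 each). Among the 5 tested, 4 were lower in MoS2_NIR against Control (Irf1, Irf7, Jak2 and Nfkbia) and 1 higher (Nfya, of the factor NF-Y). Of all tested genes 33.9% were lower and 63.5% higher there. The list median was -0.76 beside 1.01 for all tested genes. In MoS2 against Control 2 were lower (Jak2 and Irf7) and 1 higher (Nfya), against 16.8% of all tested genes lower and 30.1% higher. The call of Irf7 there (limma adjusted p = 0.0233) ended without Control replicate 1 (0.0801), Control replicate 2 (0.0697), MoS2 replicate 1 (0.0673) or MoS2 replicate 3 (0.0523). Between the particle groups 3 were lower (Irf1, Jak2 and Nfkbia) and 1 higher (Nfya), against 25.4% of all tested genes lower and 61.7% higher. Irf1 encodes a transcription factor that binds promoters of class I, TAP and immunoproteasome genes. It was 223, 243 and 215 in Control, 197, 211 and 205 with MoS2, and 58.3, 58.5 and 62.1 with MoS2_NIR. The groups did not overlap, with a narrow gap between Control and MoS2 and the irradiated libraries far below both. Irf1 fell by 1.91 in MoS2_NIR against Control (SE 0.08, limma adjusted p = 4.13e-08) and was at -1.76 against MoS2 (limma adjusted p = 3.24e-07). In MoS2 against Control it was at -0.15 (limma adjusted p = 0.147), and at -0.48 after median-ratio scaling (limma adjusted p = 0.00107).

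Jak2, a kinase of the interferon-gamma receptor, had means of 30.2 ± 3.50 in Control, 21.9 ± 0.370 in MoS2 and 17.4 ± 1.14 in MoS2_NIR (SD, n = 3 each). It fell in MoS2 (log2 fold change -0.44, limma adjusted p = 0.0073) and in MoS2_NIR (-0.76, limma adjusted p = 3.17e-05) against Control. Its call between the particle groups (-0.32, limma adjusted p = 0.0139) ended without MoS2_NIR replicate 2 (limma adjusted p = 0.0547). Nfkbia, the gene of the NF-kB inhibitor IkB alpha, was 247 ± 7.92, 250 ± 14.0 and 128 ± 1.73 in Control, MoS2 and MoS2_NIR. It fell by 0.95 in MoS2_NIR against Control (limma adjusted p = 6.26e-07), while its difference of 0.02 in MoS2 turned to -0.31 after median-ratio scaling (limma adjusted p = 0.0144).

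Nfya encodes a subunit of NF-Y, a factor that binds class I and class II promoters. It rose from 10.9 ± 1.85 in Control to 19.5 ± 1.36 in MoS2 and 27.4 ± 1.23 in MoS2_NIR (SD, n = 3 each; log2 fold change against Control 0.79 and 1.26, limma adjusted p = 0.00105 and 2.31e-06). With median-ratio scaling the second value was 0.18 and no longer called (limma adjusted p = 0.0979). The difference between the particle groups was 0.47 (limma adjusted p = 0.00398), and it turned to -0.30 after median-ratio scaling (limma adjusted p = 0.0167) and was 0.06 after quantile normalization (limma adjusted p = 0.566). Nlrc5, the activator of class I genes, was not analysed here.

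Genes of class I-like molecules and ligands were mostly low in value. Of 13 listed 5 were tested. All 5 were called lower in MoS2_NIR against Control, where 33.9% of all tested genes were called lower and 63.5% higher. The list median was -0.50 beside 1.01 for all tested genes. Mr1, which presents metabolites of bacteria to MAIT cells, had means of 7.70 ± 0.961 in Control, 4.89 ± 0.774 in MoS2 and 3.62 ± 0.386 in MoS2_NIR (SD, n = 3 each), and fell against Control in both (log2 fold change -0.56 and -0.91, limma adjusted p = 0.00806 and 6.38e-05). Cd1d1, which presents lipids to NKT cells, had 3.66 ± 0.652 in Control and 2.28 ± 0.138 in MoS2_NIR (log2 fold change -0.50, limma adjusted p = 0.00443). The neonatal Fc receptor gene Fcgrt, the iron regulator gene Hfe and the NKG2D ligand gene Raet1e were at -0.88, -0.50 and -0.46 in the same comparison (limma adjusted p = 0.00243, 0.0056 and 0.0132). The call of Raet1e ended without MoS2_NIR replicate 3 (limma adjusted p = 0.0604). Hfe reached 1 only in the Control libraries (1.93, 1.25 and 1.17), so it passed the limit for testing through the group where it was highest. Its fall, and its place among the 5, are partly set by that limit. In MoS2 against Control 1 was lower (Mr1), where 16.8% of all tested genes were. Between the particle groups 3 were lower (Mr1, Cd1d1 and Fcgrt), where 25.4% of all tested genes were. These 3 calls each ended when single libraries were left out (highest limma adjusted p = 0.119, 0.113 and 0.0799). The checkpoint ligand gene Cd274 and the listed genes of the class II pathway and of protein quality control in the endoplasmic reticulum were not analysed here.

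Markers of other cell types were looked for because fibroblasts and leukocytes also carry class I. Of 5 listed fibroblast markers 2 were in the table, Postn and Col1a1, with a summed value of 4.40 to 5.26 in Control, 2.44 to 3.50 in MoS2 and 0.670 to 1.01 in MoS2_NIR. The labels name 1 cell line for all libraries, so values of these 2 genes do not show that fibroblasts were present. The sum was lower in the treated groups, as the members were, and any link between them was not tested. Of 10 listed markers of leukocytes and antigen presenting cells and 3 of endothelium, 0 were in the table.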

How the data were processed

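The authors' deposited table holds 1 score per gene and library, standardized over the 9 libraries (mean 0, population SD 1 in 2391 of 2392 genes). Tools named per the submitters' processing notes are Cufflinks 2.1.1, Bowtie 0.12.9 and HTSeq, with the build mm10; their roles, the strand setting and the unit behind the scores are not given in the sources used here. The organism field names the rat, while source, cell line, build and identifiers name the mouse. Values in steps of 0.01 were searched for whose ln (value + 1), once standardized, equals the scores within 3e-09 (2391 genes, largest score difference 5e-10; members' expected chance solutions at most 1.7e-18). No step that 1 read would give was found in low values (at most 9.2% of ratios between libraries within 2% of a single value), so depth is unknown. No libraries were identical. Within groups, libraries correlated at 0.975 to 0.984.

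The 1748 genes that reached 1 in 3 or more libraries were fitted as log2 (value + 1) with limma 3.58.1 in R 4.3.3 (trend, robust, all libraries in 1 fit, 6 residual degrees of freedom), adjusted by Benjamini-Hochberg over all tested genes and called under 0.05. The plan had foreseen counts as a possibility; the table held scores. Every member was described, list genes were named where tested, and the 5 most similar genes were taken by Pearson correlation. Scripts were tested on simulated data. The members and lists were chosen with earlier results of these data known. Alternatives were other pseudocounts (0.1 and 5), no filter, median-ratio and quantile scaling, plain moderation, fits of 6 libraries, a replicate block, the scores themselves and leaving out each library. Positions and sequences of mouse genes were not used here.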

Additional observations from a re-analysis of the deposited data

How the results depend on the processing

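The count of members called lower was 4, 6 and 5 for MoS2 against Control, MoS2_NIR against Control and MoS2_NIR against MoS2, and it ranged over 4 to 6, 6 to 7 and 4 to 6 when 1 library was left out. It rose to 7 for MoS2 against Control after median-ratio scaling. Libraries with the same number in their titles shared little deviation from their group means (correlations from -0.08 to 0.10). This does not settle whether they were paired, which the labels do not say. With a replicate block the counts were 4, 6 and 5 again, while Mr1 between the particle groups was no longer called (limma adjusted p = 0.0515). Over 378 refits of a member, 355 kept direction and side of the threshold, 20 gained a call, 2 lost one (B2m, Tap1) and 1 turned, H2-Q5 between the particle groups without MoS2_NIR replicate 3 (limma adjusted p = 0.459; 0.0281 to 0.9 over the libraries left out). Among the other named genes 5 refits turned: Nfkbia in MoS2 after median-ratio scaling (0.0144) and without MoS2 replicate 3 (0.842; 0.633 to 0.954 over the libraries left out), Adrm1 in MoS2 after median-ratio scaling (0.654), Nfya between the particle groups after it (0.0167), and Irf7 there without MoS2_NIR replicate 1 (0.784; 0.605 to 0.908), all limma adjusted p-values. The cause was not tested. Both scalings assume that most genes or the whole distribution stayed alike, which a table of selected genes makes doubtful. No depth is known, so nothing can be said on detection limits of H2-T24.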

Other observations

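Socs1, an inhibitor of JAK kinases that interferon induces, was below the limit for testing in the table and is named after its values were seen. It was 0.24, 0.34 and 0.08 in Control, 0.30, 0.28 and 0.30 with MoS2, and 0.59, 1.30 and 0.77 with MoS2_NIR. All 3 irradiated libraries were above the other 6, opposite to the direction of the class I genes. A rise was the usual state in MoS2_NIR against Control, where the median of all tested genes was 1.01 and 63.5% were called higher. No values of Socs1 scaled between libraries are given, so its rise is only that of the unscaled values.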
